A study of Mus musculus with 7 samples.

Results

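Trp63, Klf4, Klf5, Grhl1, Grhl3, Ovol1, Gata3, Prdm1, Hopx and Zfp750 encode transcription factors and cofactors that set the identity of epidermal keratinocytes, and their expression is described here in 6 skin tumours of mice. The 10 genes were taken by name out of 55423 features of the count table, with earlier results of these data known, and all 10 were among the 24433 genes that passed the filter on low counts. Bulk RNA was sequenced from tumours of 2 groups of mice on a C57BL/6J background, collected at clinical endpoint. In both groups a tamoxifen-inducible Cre under the involucrin promoter (Ivl-CreERT2) switched on 1 BRAFV600E allele in the IVL+ population, which is the keratinocytes that have begun to differentiate. The Ivl:BRAFV600E tumours are called B1, B2 and B3, and B1 and B2 also carried a Rosa26 allele for the red fluorescent reporter tdRFP. The Ivl:BRAFV600E-SOX2LSL tumours are called S1, S2 and S3, and their Rosa26 locus held, in addition, an allele from which Cre releases SOX2 together with eGFP. The labels give ages of 7 to 10 weeks, which are not read here as ages at collection. B1, B2 and S3 came from females and the other tumours from males, each tumour from a different mouse. Every Ivl:BRAFV600E-SOX2LSL tumour was collected sooner after induction than every Ivl:BRAFV600E tumour, so time since induction and genotype cannot be told apart.

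The epidermis renews from a basal layer of keratinocytes that divide on the basement membrane and then move outward, exchange their keratins and build the cornified barrier. p63, the product of Trp63, keeps the basal program and also switches on early regulators of differentiation, among them ZNF750, whose mouse gene is Zfp750. KLF4, ZNF750, GRHL1, GRHL3, OVOL1 and PRDM1 act mostly in the upper layers on barrier genes and on exit from the cell cycle, KLF5 is strongest in dividing keratinocytes, and GATA3 acts in the hair follicle and in barrier lipid synthesis. Hopx encodes a small homeodomain protein that does not bind DNA itself and works through partner proteins.

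Between 23565432 and 31152826 read counts per tumour fell on genes. Expression is in CPM, the counts per 1 M counts of a library whose size was scaled by TMM. Sox2 checked the labels, with 0.24 to 0.72 CPM in the Ivl:BRAFV600E tumours and 155 to 182 CPM in the Ivl:BRAFV600E-SOX2LSL tumours, and the EGFP sequence had no count in any Ivl:BRAFV600E tumour and 110 to 139 CPM in the others. All 12 keratinocyte markers, such as Krt5 and Krt14, were present in every tumour. S1 stood apart from S2 and S3 in several lists of cell type markers and in most of the 10 genes, so results are also given without it. In bulk tissue, fewer cells of a type and less RNA per cell cannot be told apart.

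Of the 10 genes, only Hopx passed the test between the genotypes. Hopx was lower in the Ivl:BRAFV600E-SOX2LSL tumours, with an adjusted p of 0.0288 in edgeR's quasi-likelihood test. That is 1 of 10 genes lower and 0 of 10 higher, while 1.51% of all genes tested were called lower and 2.39% higher. By range alone the picture was broader. In 7 genes (Klf4, Klf5, Grhl1, Ovol1, Prdm1, Hopx and Zfp750) every Ivl:BRAFV600E-SOX2LSL tumour lay below every Ivl:BRAFV600E tumour, in Gata3 every one lay above, and Trp63 and Grhl3 overlapped. Among all genes tested, 16.0% were lower without overlap and 18.2% were higher without overlap. The median log2 fold change was -0.66 over the 10 genes (-0.39 without S1) and 0.04 over all genes tested. At an unadjusted p below 0.05, 7 of the 10 genes passed, against 25.7% of all genes tested. With 3 tumours per group an exact permutation test cannot go below p = 0.1, and it gave 0.1 for each of the 8 genes without overlap and 0.4 for Trp63 and for Grhl3.

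**Figure D1:**
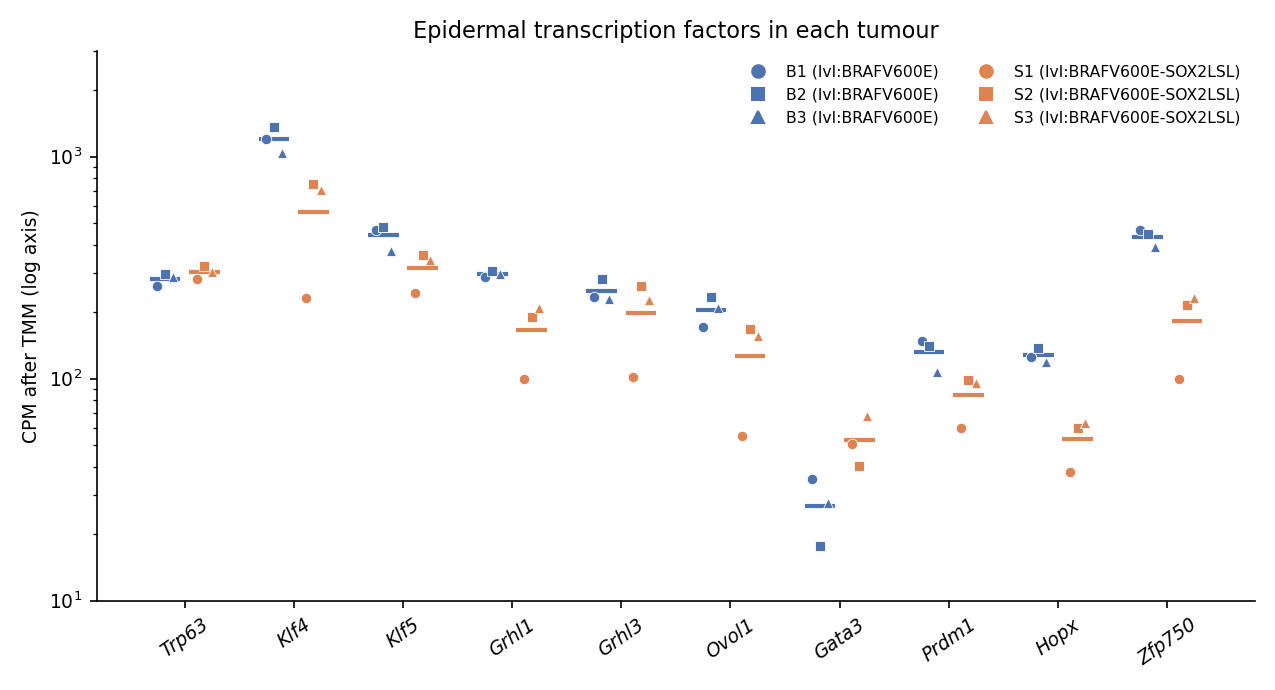
Expression of the 10 genes in each tumour, as CPM after TMM on a log axis, with 1 point per tumour and a bar at the group mean (n = 3). S1, the orange circle, is the lowest of the Ivl:BRAFV600E-SOX2LSL tumours in 9 of the 10 genes, and Trp63 stays between 260.5 and 320.8 CPM in all 6 tumours.

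Trp63, the master regulator of stratified epithelia, was close to level over the 6 tumours. It had 260.5, 296.6 and 287.4 CPM in B1, B2 and B3 and 280.9, 320.8 and 302.2 CPM in S1, S2 and S3. The groups overlapped, and S1 lay between B1 and B3. The log2 fold change was 0.10 (SE 0.13, adjusted p = 0.662, edgeR), and the spread among tumours was 6.67% of the mean in the Ivl:BRAFV600E group and 6.63% in the other. The counts are per gene over 8 annotated transcripts, so the TA and ΔN forms of p63 were not separated. Over the alternative analyses the log2 fold change of Trp63 lay between 0.0012 (upper-quartile scaling) and 0.35 (scaling to the keratinocyte markers), with no call.

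KLF4 and ZNF750 drive terminal differentiation and barrier formation. Klf4 had 1199, 1357 and 1039 CPM in B1, B2 and B3 and 230.6, 754.4 and 706.8 CPM in S1, S2 and S3. All 3 Ivl:BRAFV600E-SOX2LSL tumours were lower, and S1 was far below S2 and S3. The mean of these tumours was 47.1% of the Ivl:BRAFV600E mean, with a log2 fold change of -1.09 (SE 0.42, adjusted p = 0.160, edgeR). Zfp750 had 467.4, 448.0 and 391.1 CPM in B1, B2 and B3 and 99.6, 213.6 and 230.1 CPM in S1, S2 and S3. The lowest Ivl:BRAFV600E value was well above the highest value of the other group. With -1.27, its log2 fold change was the most negative of the 10 genes, and it did not pass (SE 0.31, adjusted p = 0.0648, edgeR). DESeq2 and limma voom called Zfp750 lower (adjusted p = 0.00199 and 0.0201), as did edgeR without a filter on low counts (0.0314). These analyses called 7.76%, 3.97% and 1.99% of their genes lower. All voom fits described here used sample weights, so the tumours need not count equally in them.

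The grainyhead-like factors GRHL1 and GRHL3 share a binding site, and GRHL1 is known for its control of desmosomal cadherins while GRHL3 is needed for barrier formation and wound closure. Grhl1 had 287.7, 306.5 and 296.4 CPM in B1, B2 and B3 and 99.2, 189.3 and 207.8 CPM in S1, S2 and S3. The SD of the 3 Ivl:BRAFV600E tumours was 3.17% of their mean, and every tumour of the other group was lower. The log2 fold change was -0.84 (SE 0.27, adjusted p = 0.111, edgeR), and DESeq2 (0.0295) and limma voom (0.0483) called Grhl1 lower. Grhl3 had 234.2, 280.8 and 228.7 CPM in B1, B2 and B3 and 101.3, 262.4 and 227.0 CPM in S1, S2 and S3. S1 was low in Grhl3 while S2 lay inside the Ivl:BRAFV600E range. The log2 fold change was -0.33 (SE 0.33, adjusted p = 0.556, edgeR), and without S1 it was -0.02.

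OVOL1 and PRDM1 are zinc finger repressors, of which OVOL1 helps keratinocytes to leave the cell cycle and PRDM1, also known as BLIMP1, acts in the granular layer. Ovol1 had 170.2, 232.1 and 207.2 CPM in B1, B2 and B3 and 54.9, 167.5 and 155.1 CPM in S1, S2 and S3. S2 fell just short of B1, and S1 was low (log2 fold change -0.69, SE 0.39, adjusted p = 0.304, edgeR). Prdm1 had 147.4, 140.2 and 106.9 CPM in B1, B2 and B3 and 59.7, 99.1 and 95.7 CPM in S1, S2 and S3. Again the nearest tumours of the 2 groups, B3 and S2, were close (log2 fold change -0.63, SE 0.23, adjusted p = 0.141, edgeR). Klf5, the relative of Klf4 that is expressed in dividing keratinocytes, had 467.1, 483.2 and 376.5 CPM in B1, B2 and B3 and 243.9, 360.3 and 341.0 CPM in S1, S2 and S3. It was lower by the smallest amount of the 7 genes without overlap (log2 fold change -0.49, SE 0.19, adjusted p = 0.169, edgeR), and B3 lay near S2.

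Hopx had 125.4, 137.6 and 119.0 CPM in B1, B2 and B3 and 37.9, 59.7 and 63.3 CPM in S1, S2 and S3. The groups were far apart, and the mean fell from 127 ± 9.43 CPM to 53.6 ± 13.7 CPM (SD over 3 tumours each). The log2 fold change was -1.25 (SE 0.21, adjusted p = 0.0288, edgeR). DESeq2 and limma voom also called it lower (adjusted p = 1.17e-05 and 0.00911). Its log2 fold change stayed between -1.38 and -1.05 in every alternative analysis of the gene, but the call of Hopx was lost with sex as a covariate (adjusted p = 0.0702), with libraries scaled to the keratinocyte markers (0.063), and without B1 (0.129), B2 (0.0975), B3 (0.0695) or S2 (0.066). Hopx overlaps the antisense gene Hopxos by 412 bases of exon. Hopxos counts were 3.91% to 7.23% of the Hopx counts in the same tumour, and Hopxos was itself lower (log2 fold change -1.70, adjusted p = 0.0391). Whether strand was used in counting is not given in the sources used here, so reads of the shared bases cannot be told apart.

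Gata3 was the one factor higher without overlap in CPM. It had 35.3, 17.6 and 27.4 CPM in B1, B2 and B3 and 50.7, 40.4 and 68.2 CPM in S1, S2 and S3. All 3 Ivl:BRAFV600E-SOX2LSL tumours were higher, with the lowest, S2, near the highest Ivl:BRAFV600E tumour, B1. The log2 fold change was 0.99 (SE 0.29, adjusted p = 0.0986, edgeR), and DESeq2 called it higher (0.0227), a tool that called 10.5% of its genes higher and that made 34 false calls among 150 on simulated counts of this comparison. Gata3 is also expressed by T cells and in the hair follicle. The summed level of 9 T and NK cell markers was 3.23 to 9.07 CPM in the Ivl:BRAFV600E tumours and 6.25 to 10.5 CPM in the others, and Cd8a, Klrd1 and Nkg7 were at 0 in at least 1 tumour. The summed level of 9 hair follicle sheath markers (2438 to 5038 against 1754 to 4368 CPM) was mostly Krt17, and without Krt17 the other 8 summed to 11.1 to 390 CPM against 25.1 to 198 CPM, with Krt25, Krt28, Krt71 and Krt72 at 0 in at least 1 tumour. The sum of 8 sebocyte markers was higher (9.61 to 46.4 against 68.0 to 124 CPM). Their part in the Gata3 difference was not tested. Gata3 shares 155 bases of exon with the antisense gene Gm13256 and 77 bases with 9230102O04Rik on its own strand.

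**Figure D2:**
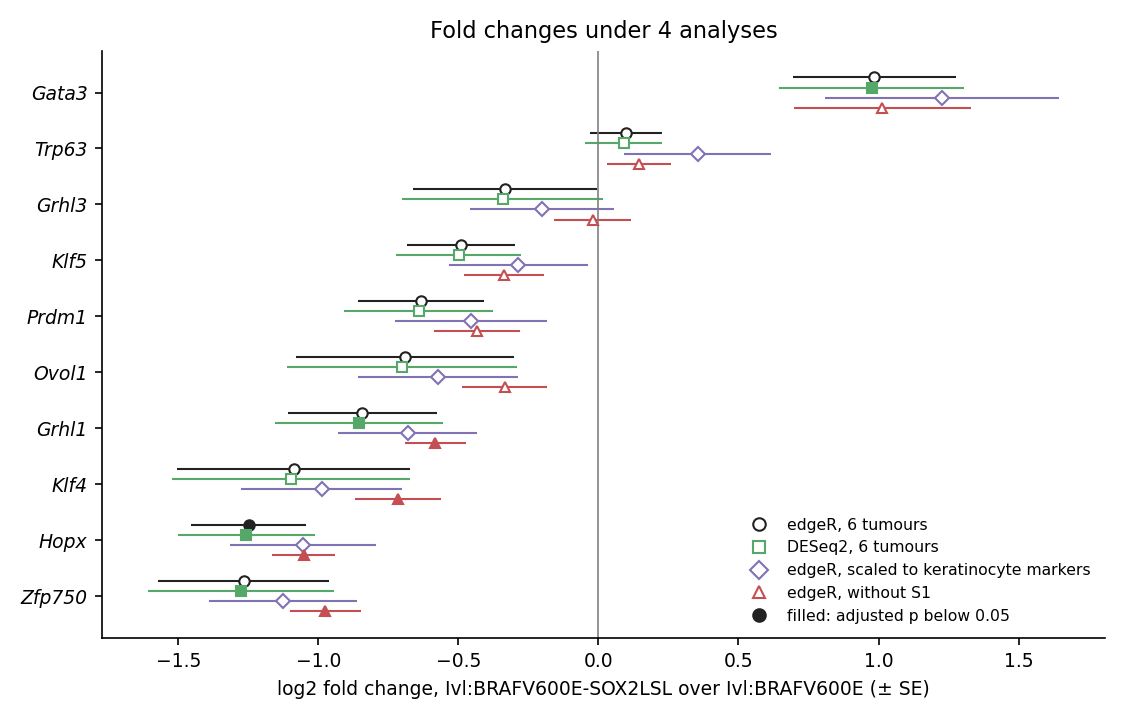
Log2 fold change of each gene between the groups (Ivl:BRAFV600E-SOX2LSL over Ivl:BRAFV600E) with its SE under 4 analyses, filled where the adjusted p was below 0.05. Hopx is filled in 3 of the 4 analyses, and the whole set moves toward 0 without S1 except Trp63 and Gata3.

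Compared per length, as CPM per kb of annotated exon, Klf4 was the most abundant of the 10 genes in both groups. The length joins the exons of all annotated transcripts, 8 for Trp63 and 1 each for Grhl3 and Zfp750, so the ranks depend on that choice. In the Ivl:BRAFV600E tumours Klf4 (393 ± 52.1 CPM per kb, SD, n = 3) was followed by Zfp750 (135 ± 12.3), Grhl3 (88.9 ± 10.3), Klf5 (85.0 ± 11.1), Hopx (84.0 ± 6.23), Ovol1 (58.2 ± 8.93), Grhl1 (53.6 ± 1.70), Trp63 (33.5 ± 2.24), Prdm1 (23.6 ± 3.87) and Gata3 (6.74 ± 2.23). The tumour ranges of Grhl3 and Klf5, of Klf5 and Hopx, and of Ovol1 and Grhl1 overlapped, and every other gene in this order was separate from the next. In the Ivl:BRAFV600E-SOX2LSL tumours the order was Klf4 (185 ± 95), Grhl3 (70.6 ± 30.4), Klf5 (60.6 ± 12.0), Zfp750 (56.0 ± 22.0), Ovol1 (36.1 ± 17.7), Trp63 (35.9 ± 2.38), Hopx (35.4 ± 9.05), Grhl1 (29.9 ± 10.5), Prdm1 (15.2 ± 3.91) and Gata3 (13.3 ± 3.54). Here only Grhl1 and Prdm1 were separated neighbours. Zfp750 thus stood at rank 2 in the first group and rank 4 in the second, and Hopx at rank 5 and rank 7.

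The tumours of the Ivl:BRAFV600E-SOX2LSL group differed among themselves. S1 was the lowest of the 3 in 9 of the 10 genes, the exception being Gata3, and the highest value exceeded the lowest 3.27-fold in Klf4, 3.05-fold in Ovol1, 2.59-fold in Grhl3 and 2.31-fold in Zfp750, but 1.14-fold in Trp63. The SD was 51.4% of the mean for Klf4 and 49.1% for Ovol1, against 13.3% and 15.3% in the Ivl:BRAFV600E group. Without S1, edgeR called 4 of the 10 genes lower, namely Hopx (log2 fold change -1.05, adjusted p = 0.00668), Zfp750 (-0.97, 0.0107), Grhl1 (-0.58, 0.0283) and Klf4 (-0.72, 0.0421), while 3.10% of all genes were then called lower. Their fold changes were smaller than with S1 and their SEs were smaller still, and the remaining S2 and S3 were close to each other in all 4. Klf5 (-0.34), Ovol1 (-0.33) and Prdm1 (-0.43) also moved toward 0 and were not called.

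A ratio of 2 genes within a tumour does not depend on the scaling of the libraries. Relative to Trp63, which was taken as the reference after its values were seen, Klf4 stood at log2 ratios of 2.20, 2.19 and 1.85 in B1, B2 and B3 and of -0.28, 1.23 and 1.23 in S1, S2 and S3. In S1 there were thus fewer Klf4 than Trp63 reads, the only tumour in which this was so. The Zfp750 to Trp63 ratio was above 0 in all 3 Ivl:BRAFV600E tumours (0.84, 0.59 and 0.44) and below 0 in all 3 others (-1.5, -0.59 and -0.39). The mean log2 ratio to Trp63 differed between the groups by -1.45 for Zfp750, -1.38 for Hopx, -1.36 for Klf4, -1.01 for Grhl1, -0.94 for Ovol1, -0.75 for Prdm1, -0.60 for Klf5 and -0.54 for Grhl3, and by 0.91 for Gata3. Without S1 the differences of Klf4 (-0.85), Ovol1 (-0.47) and Grhl3 (-0.16) were smaller by over 1.5 times. The groups did not overlap in the ratios of Klf4, Klf5, Grhl1, Ovol1, Prdm1, Hopx and Zfp750, and they overlapped in those of Grhl3 and Gata3. A pair of Klf and a pair of Grhl genes also shifted against each other, Klf4 against Klf5 by -0.76 and Grhl1 against Grhl3 by -0.48, without overlap in either. These pairs were chosen after their values were seen, and the shift of Klf4 against Klf5 was -0.38 without S1.

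**Figure D3:**
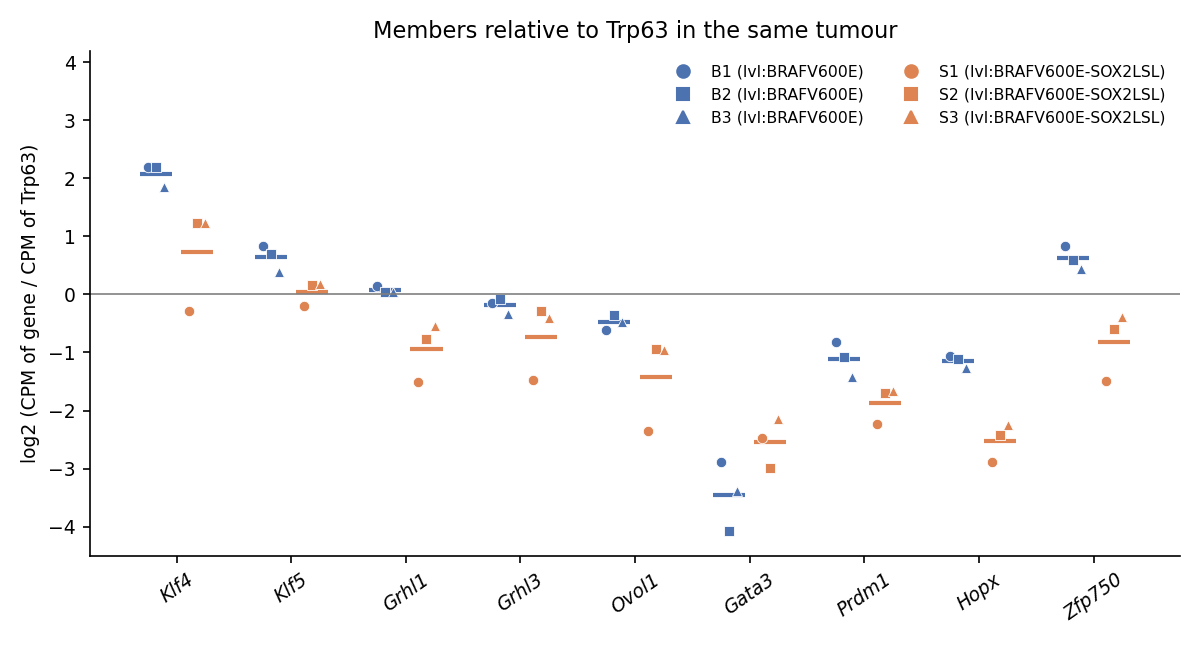
Log2 ratio of each gene to Trp63 within the same tumour, from CPM, with 1 point per tumour and a bar at the group mean (n = 3). The ratios of Zfp750 lie between 0.44 and 0.84 in the Ivl:BRAFV600E tumours and between -1.5 and -0.39 in the others, while those of Gata3 overlap.

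Relative to the mean log2 CPM of the 12 keratinocyte markers in the same tumour, 6 genes remained lower without overlap, Zfp750 by -1.13, Hopx by -1.05, Klf4 by -1.03, Grhl1 by -0.69, Ovol1 by -0.61 and Prdm1 by -0.43 (log2, exact permutation p = 0.1 each, the smallest possible). Trp63 was higher by 0.32 without overlap (exact p = 0.1), from -2.69, -2.78 and -2.74 in B1, B2 and B3 to -2.0, -2.68 and -2.56 in S1, S2 and S3, and without S1 this was 0.12. Ovol1 was at -0.35 without S1 and Prdm1 at -0.26 without B1. Klf5 (-0.28, exact p = 0.2), Grhl3 (-0.21, 0.3) and Gata3 (1.23, 0.2) overlapped, with Klf5 at -0.15 without B1 and Grhl3 at -0.05 without S1. The reference itself moved between the groups by -0.23, with a value of 10.1 in S1 against 10.7 to 11 in the other tumours. Of its 12 genes, 8 had a negative log2 fold change and 6 are also on the list of basal genes described further on, and Epcam, an adhesion molecule of simple and fetal epithelia, was called higher (log2 fold change 3.68, adjusted p = 0.0309, edgeR). With libraries scaled to these markers, the median log2 fold change over all genes was 0.305, near the 0.32 of Trp63. The share of all genes without overlap on this scale was not computed.

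The 10 genes did not share a single profile over the 6 tumours. By the Euclidean distance of centred log2 CPM, Klf5 and Prdm1 were the closest pair (0.27), followed by Hopx and Zfp750 (0.42) and by Klf4 and Zfp750 (0.49). Among 8651 genes with a mean of at least 10 CPM, the nearest to Grhl1 were Evpl, which encodes the cornified envelope protein envoplakin (distance 0.07), Tmem154 (0.09) and Hip1r (0.13). Klf4 was nearest to Rhof (0.14), Fut2 (0.18) and Zfp772 (0.21), Zfp750 to Epn3 (0.17), Rnf208 (0.17) and Gltp, a glycolipid transfer protein (0.20), and Hopx to Kifc3 (0.14), Usp54 (0.15) and Thbd (0.19). Prdm1 was nearest to Sult2b1, the cholesterol sulfotransferase of the epidermis (0.11), Kdm7a (0.18) and Cldnd1 (0.20). Ovol1 was nearest to Ggt6 (0.17), Rbp2 (0.18) and Lrrc8e (0.23), Grhl3 to Ddah2 (0.18), Endou (0.22) and Abtb2 (0.28), and Klf5 to Ncbp1 (0.10), Ftsj1 (0.13) and Elof1 (0.14). Trp63 was nearest to Zcchc17 (0.09), Pdlim5 (0.10) and Dnajc5 (0.10), all of them nearly level across the tumours. Gata3 had no near neighbour, with Inpp4b at 0.36, Sema5a at 0.44 and Ano1 at 0.46. The distances rest on 6 libraries that all genes share, and they describe likeness only.

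As SOX2 distinguished the groups, the start regions of the genes were read for the core letters of the SOX binding site, ACAAT or ACAAAG on either strand. RefSeq promoter windows (GRCm38.p6) matched 6 of the 10 genes, Klf4, Grhl1, Grhl3, Gata3, Prdm1 and Hopx, with 8 windows. In the 250 bases before the start, ACAAT was present once in the Prdm1 window and once in the second Hopx window and in no other, and ACAAAG in none, while 27.7% and 16.5% of all 32851 windows hold these letters. These shares do not take base content into account. G and C made up 74.0% of the Klf4 window, 75.6% of the first Grhl1 window and 70.0% of the Gata3 window. The other windows had 52.0% to 59.2%, and the median of all windows was 52.4%. Printed 5′ to 3′ are the windows of Hopx, the gene that passed the test, of Prdm1, and of Gata3, the gene with higher values, with ACAAT or its complement ATTGT in capitals. The first Hopx window is at chr5:77115124-77115373 and lies just before the gene's outermost start, the second is printed as the 240 bases at chr5:77095278-77095517 inside the gene, without the last 10 bases of the window, which lie in an annotated exon, the Prdm1 window is at chr10:44458749-44458998 and the Gata3 window at chr2:9878601-9878850, both also inside the span of their gene, and all are on the minus strand and outside annotated exons of these genes.
Hopx, first window: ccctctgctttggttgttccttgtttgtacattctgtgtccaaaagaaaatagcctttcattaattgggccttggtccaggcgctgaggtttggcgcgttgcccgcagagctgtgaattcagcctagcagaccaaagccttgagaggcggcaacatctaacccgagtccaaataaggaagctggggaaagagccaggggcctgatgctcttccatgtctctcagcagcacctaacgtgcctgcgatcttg
Hopx, second window: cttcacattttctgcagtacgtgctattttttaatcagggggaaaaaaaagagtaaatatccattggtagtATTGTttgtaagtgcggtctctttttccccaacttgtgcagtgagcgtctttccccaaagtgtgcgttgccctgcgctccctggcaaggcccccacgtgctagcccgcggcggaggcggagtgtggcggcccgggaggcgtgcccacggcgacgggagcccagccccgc
Prdm1: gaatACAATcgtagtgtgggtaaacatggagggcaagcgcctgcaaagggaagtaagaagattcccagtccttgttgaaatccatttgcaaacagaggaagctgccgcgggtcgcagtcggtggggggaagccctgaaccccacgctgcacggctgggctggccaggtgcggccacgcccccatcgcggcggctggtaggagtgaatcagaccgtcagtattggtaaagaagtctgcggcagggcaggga
Gata3: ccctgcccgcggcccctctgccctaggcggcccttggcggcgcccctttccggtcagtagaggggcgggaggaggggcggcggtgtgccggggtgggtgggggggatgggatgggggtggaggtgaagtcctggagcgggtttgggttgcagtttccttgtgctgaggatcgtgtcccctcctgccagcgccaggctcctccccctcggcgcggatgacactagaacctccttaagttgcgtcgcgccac
The KLF box CACCC was found 3 times each in the windows of Gata3 and Grhl3, with overlaps allowed, and 2 times in the second Grhl1 window (52.0% of all windows hold it at least once). No window held the GRHL letters ACCGGT (1.86% of all windows) or the GATA letters AGATAA (9.99%), the AP-1 letters TGANTCA were present once in the Prdm1 window (6.75%), and GAAAG, the core of the PRDM1 site, was present in the windows of Klf4, Gata3, Hopx (both) and the second of Grhl1 (51.5%). None of the searched letter strings contains another. A match gives letters only and not a bound site.

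None of the 23 tested relatives from the same gene families passed edgeR's test (6 at an unadjusted p below 0.05), and their median log2 fold change was 0.04, equal to that of all genes. DESeq2 called 3 of them higher and 2 lower, and limma voom 1 lower. Over all genes tested, 25.7% had an unadjusted p below 0.05. DESeq2 called 10.5% of its genes higher and 7.76% lower, and voom 3.97% lower, so the counts of the relatives are near these shares. Trp53 (log2 fold change 0.35, adjusted p = 0.256), a relative of Trp63, was higher without overlap and did not pass. Trp73, the other relative (-0.09, 0.844), and Grhl2, the third grainyhead-like factor (0.04, 0.844), overlapped, with 68.0 to 78.8 CPM of Grhl2 in all 6 tumours. The Kruppel-like repressor gene Klf3 resembled Klf4, with 759.0, 702.0 and 579.4 CPM in B1, B2 and B3 and 200.8, 412.4 and 391.8 CPM in S1, S2 and S3 (log2 fold change -1.02, adjusted p = 0.0862). Klf12 was also lower without overlap (-0.97, 0.0726), Klf9 was higher without overlap (0.52, 0.0971), and Klf2 (0.19), Klf6 (-0.26) and Klf7 (-0.15) overlapped. Ovol2, which holds epithelial identity, was higher at a low level, 0.95 to 1.16 CPM against 1.81 to 2.35 CPM (log2 fold change 1.01, adjusted p = 0.0864). Gata6, a factor of the upper hair follicle and sebaceous duct, had 0.28 to 0.61 CPM against 1.01, 2.14 and 6.97 CPM (2.90, 0.0763), and Gata2 overlapped (0.69, 0.296).

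Of 30 other regulators of the epidermis, 2 fell and 0 rose in edgeR's test, with 10 and 5 at an unadjusted p below 0.05 and 6 and 2 called by DESeq2. Over all genes tested, 11.2% were lower and 14.5% higher at an unadjusted p below 0.05. DESeq2 called 7.76% of its genes lower and 10.5% higher. Maf, a transcription factor gene of keratinocyte differentiation, fell from 154.9, 225.2 and 207.1 CPM to 77.4, 106.5 and 90.4 CPM (log2 fold change -1.10, adjusted p = 0.0317), and the nuclear receptor gene Rora fell from 658.6, 487.7 and 478.8 CPM to 72, 157.5 and 213.1 CPM (-1.88, 0.0455). Hr, the hairless corepressor (-1.83, 0.0542), and Dlx3, a homeobox gene of the suprabasal layers (-1.99, 0.103), were lower without overlap and did not pass. Cux1 (0.75, 0.0561), the chromatin organiser Satb1 (1.76, 0.11), Runx1 (0.83, 0.147) and Pitx1 (0.44, 0.145) had higher means and did not pass. The median log2 fold change of the 30 genes was -0.37, and it was -0.16 without S1 and -0.10 with libraries scaled to the keratinocyte markers. The number called lower was 7 without S1, 0 without any other tumour and 0 with sex as a covariate.

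p63 sustains integrin, laminin and adhesion genes of the basal layer. Of 22 such genes, 3 rose and 1 fell in edgeR's test, and 11 were higher and 4 lower without overlap, with a median log2 fold change of 0.68. Over all genes tested, edgeR called 2.39% higher and 1.51% lower. Without overlap, 18.2% of all genes were higher and 16.0% lower, so the 4 lower genes are near that share. Cdh3, the gene of P-cadherin, rose from 102.8, 99.5 and 96.8 CPM in B1, B2 and B3 to 210.3, 156.6 and 188.0 CPM in S1, S2 and S3 (log2 fold change 0.89, adjusted p = 0.0272). Bcam, a laminin receptor gene (1.08, 0.0276), and Lamb3, a chain of laminin-332 (1.06, 0.049), rose as well, and the integrin gene Itga6 was higher without overlap (0.67, 0.0702). Fras1, a basement membrane protein gene, fell (-2.45, 0.0277), and the desmosomal genes Perp (-1.27, 0.111), Pkp1 (-1.13, 0.152) and Dsc3 (-0.49, 0.290) did not pass. Krt5 (0.29, 0.452) and Krt14 (-0.65, 0.447), the basal keratins, overlapped between groups. The 3 rises were 6 without S1 and 0 without B1, B2, B3 or S3, and the fall of Fras1 was lost without any tumour but S1. With sex as a covariate none of the 22 was called, and scaling to the keratinocyte markers left 0 higher and 2 lower, while the median log2 fold change was 0.64 and 0.92 in these analyses.

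All 35 genes of differentiation and barrier had a negative log2 fold change (median -1.63), 26 were lower without overlap, and 3 fell in edgeR's test, Sbsn (log2 fold change -1.97, adjusted p = 0.0267), the protease inhibitor gene Spink5 (-2.10, 0.0293) and Dsg1a, the desmoglein of the upper layers and a known GRHL1 target (-2.39, 0.049). DESeq2 called 25 and limma voom 19 of them lower. Of all their genes, edgeR, DESeq2 and voom called 1.51%, 7.76% and 3.97% lower, and 16.0% of all genes tested were lower without overlap. Dsg1a had 1843, 3165 and 2631 CPM in B1, B2 and B3 and 186.1, 757.6 and 513.0 CPM in S1, S2 and S3, so that S1 was again lowest. Krt1 (-2.24, 0.149) and Krt10 (-3.06, 0.0935), the suprabasal keratins, and Cdsn (-1.92, 0.0511) were lower without overlap, while Tgm1 (-0.43, 0.506) and Ivl (-0.64, 0.611), whose promoter drives the Cre, overlapped. The number called lower was 20 without S1, 1 without S2 or S3, 0 without B1, B2 or B3 and 0 with sex as a covariate. The median log2 fold change was -1.27 without S1, -1.48, -1.52 and -1.73 without B1, B2 and B3, and -1.49 with sex.

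**Figure D4:**
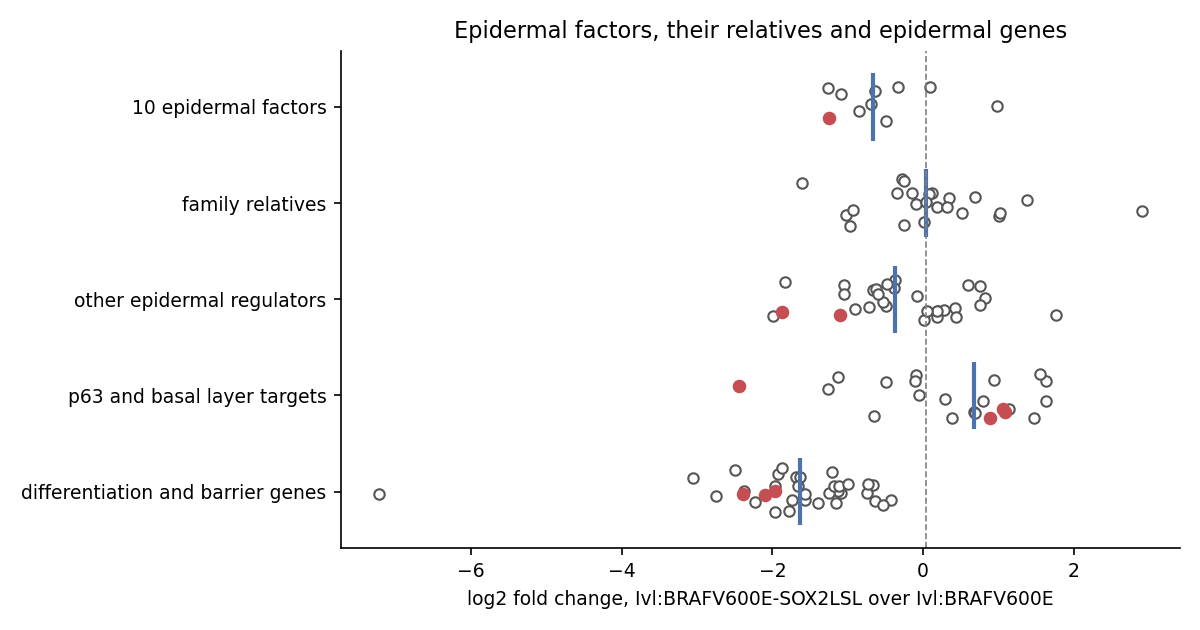
Log2 fold change of each gene (1 point per gene, red where edgeR's adjusted p was below 0.05) in the 10 epidermal factors and 4 lists, with the list median in blue and the median of all genes as a dashed line. The medians are -0.66, 0.04, -0.37, 0.68 and -1.63 from top to bottom.

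Markers of other cell types also differed between the tumours, in S1 most of all in several lists. The summed level of 12 keratinocyte markers was 42440 to 72890 CPM in the Ivl:BRAFV600E tumours, 20370 CPM in S1 and 49680 and 39190 CPM in S2 and S3. The list was split in S1, which was lowest of all tumours in Perp (1042 CPM) and Pkp1 (1004 CPM). It was highest in Cdh1 (916.0 CPM) and Epcam (428.4 CPM), so the low sum does not hold for every keratinocyte gene. The sum of 8 myeloid markers was 70.8 to 138 CPM against 491.6 CPM in S1, 255.3 in S2 and 170.0 in S3, and Ptprc (log2 fold change 1.30) and Csf1r (1.98) were called higher (adjusted p = 0.0483 each, edgeR). The sum of 7 fibroblast markers was 759 to 5079 CPM against 8280 in S1 and 3935 and 4761 in S2 and S3. The sum of 10 skeletal muscle markers was 3.14 to 13.1 CPM against 2973, 3043 and 758 CPM, with 8 of 10 called higher. The 7 endothelial markers were at 173 to 192 against 178 to 210 CPM, and 5 tested B and plasma cell markers summed to at most 4.59 CPM in any tumour. Their part in the lower levels of the epidermal factors was not tested.

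**Figure D5:**
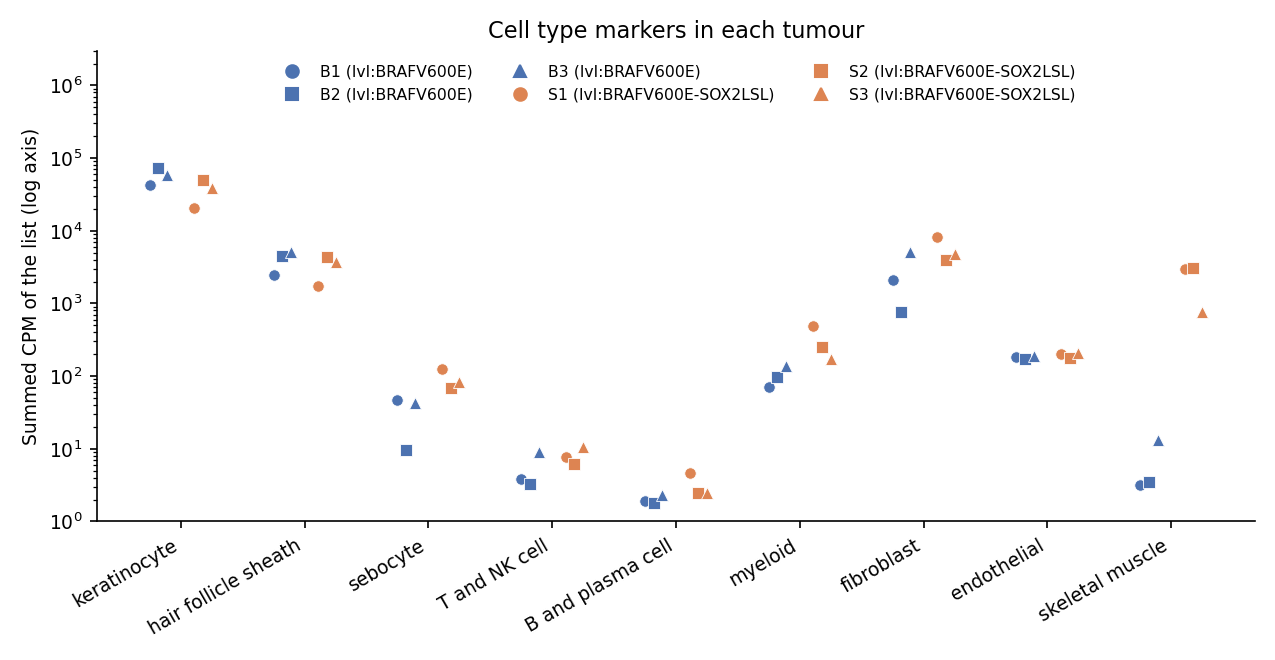
Summed CPM of each list of cell type markers on a log axis, with 1 point per tumour. S1, the orange circle, has the lowest sum of keratinocyte markers (20370 CPM), although Cdh1 and Epcam of that list are highest in S1. Its sums of myeloid (491.6 CPM) and fibroblast (8280 CPM) markers are the highest.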

How the data were processed

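Bulk tumour RNA was depleted of ribosomal RNA and sequenced as paired-end reads of 150 bases. According to the submitters' processing notes and the paper's methods, the authors checked reads with FastQC 0.11.8, trimmed them with Trim Galore, aligned them to GRCm38 with HISAT2 2.1.0 and counted them per gene with featureCounts (Subread 1.6.3), and they deposited raw read counts without normalisation. Strand and multimapping settings are not given in the sources used here. Its 7 columns carry mouse names. The 6 used were assigned to their genotype from the mouse list of the study, and 1 column that matched no listed mouse was not used.

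The filter asked for 5 reads or more in any 1 tumour (24433 genes), library sizes were scaled by TMM, and 3 tumours were compared with 3 by edgeR 4.0.16 (quasi-likelihood, R 4.3.3) with Benjamini-Hochberg adjustment over all genes at 0.05. The test was designed for the 4 and 3 tumours of the labels. SE is the log2 fold change divided by the root of F, and log2 CPM used a prior count of 2. Alternatives were DESeq2 1.42.0, limma 3.58.1 (voom with sample weights), 3 other scalings, 2 other filters, sex as a covariate and each tumour left out. Ratios to Trp63 were added after the data were seen. Symbols were found for 55154 of 55423 features, and positions are from GENCODE M21. On simulated counts for this comparison, edgeR recovered 20 of 100 genes changed by a fold of 2 and 80 of 100 changed by a fold of 4, with 2 false calls among 102. DESeq2 made 34 false calls among 150 and limma voom 3 among 94. Python 3.11.15 with matplotlib 3.10.9 and pandas 2.3.3 served for tables and plots.

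The 10 genes, the 4 lists of other epidermal genes and the marker lists were chosen with earlier results of these data known. The genes named were the 10 factors, Sox2 and EGFP, a fixed set of relatives and epidermal genes, genes overlapping a factor, up to 4 genes with the smallest p per direction and list, and the 3 genes most like each factor among those with at least 10 CPM.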

Additional observations from a re-analysis of the deposited data

How the results depend on the processing

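No paired analysis was possible because the columns are named by mouse and carry no replicate number. No alternative turned the direction of any of the 10 factors. DESeq2 called 3653 genes, limma voom 2142, edgeR without a filter 1759 and edgeR with sex as a covariate 228, and leaving out 1 tumour gave 22 (without B1) to 1575 (without S1), against 954. Scaling to the keratinocyte markers moved the median over all genes (log2 fold change) from 0.04 to 0.30. Among the factors, DESeq2 also called Grhl1 (log2 fold change -0.85), Zfp750 (-1.28) and Gata3 (0.98), limma voom Grhl1 (-0.68) and Zfp750 (-1.11), and edgeR without a filter Zfp750 (-1.26). Hopx lost its call with keratinocyte-marker scaling (-1.05) and with sex (-1.17). The factors called lower thus numbered 3, 3 and 2 under DESeq2, voom and no filter and 0 under keratinocyte-marker scaling and sex, with 1 called higher under DESeq2. Of all their genes, DESeq2, voom and no filter called 7.76%, 3.97% and 1.99% lower, and DESeq2 called 10.5% higher.

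For the relatives, DESeq2 called 3 higher and 2 lower, voom 1 lower, and the fit without a filter 1 higher and 1 lower. For the other regulators, DESeq2 called 2 higher and 6 lower, voom 1 and 5, filterByExpr and no filter 1 higher each, and the sex covariate left 0 lower. For the basal genes, DESeq2 called 11 higher and 3 lower, voom 7 higher, no filter 5 higher, keratinocyte-marker scaling 0 higher and 2 lower, and sex 0 and 0. For the differentiation genes, the counts lower were 25 (DESeq2), 19 (voom), 15 (keratinocyte-marker scaling), 6 (filterByExpr), 17 (no filter) and 0 (sex). The causes were not tested.

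With each tumour left out in turn, the log2 fold change ranged from -1.36 to -0.72 for Klf4, from -1.04 to -0.58 for Grhl1, from -1.38 to -1.05 for Hopx and from -1.47 to -0.97 for Zfp750. The counts called ranged from 0 to 4 factors lower, 0 to 1 relatives higher and 0 to 1 lower, 0 to 7 other regulators lower, 0 to 6 basal genes higher and 0 to 1 lower, and 0 to 20 differentiation genes lower. Trp63 relative to the keratinocyte markers ranged from 0.12 to 0.46. Every factor had over 10 CPM in every tumour.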
